A study of Cricetulus griseus with 5 samples.

Results

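Genes whose symbol begins with Zfp and a digit were followed on 5 arrays in which RNA of 1 cell line was compared with itself. They are zinc finger genes by name. The platform's probe-to-gene table, which names mouse genes, gave a single symbol to 17786 of the 20868 array features (probes), and 281 of those carried a Zfp symbol, for 264 genes. Only 11 of these 264 symbols (4.17%) were found by symbol or synonym among hamster genes. Which hamster transcripts the probes detect was therefore not checked, and gene roles given below are not from hamster. Another 1 probe with a Zfp symbol beside a second symbol was left out, as the members are probes with exactly 1 symbol. Members were picked out by symbol, and no measured value entered that rule, although the family was proposed with earlier results of these data known. The RNA was from A23, a line of Chinese hamster fibroblasts without thymidine kinase activity, into which fragments of a donor genome are brought to make radiation hybrids. Total RNA of A23 cells, for which the labels name no treatment, was in both channels of each array, with Cy5 in one and Cy3 in the other, so all 5 arrays (replicates 1 to 5) form 1 group with no contrast of genotype or treatment. Nothing in the labels tells whether separate cultures lie behind the arrays, so the p-values reflect array-to-array spread alone, which may be technical. Per the series' design text the arrays served as controls for the power to find cis effects on expression.

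Most proteins named Zfp in mouse carry tandem fingers of the C2H2 kind, in which a pair of cysteines and a pair of histidines hold a zinc ion and each finger can read a few bases of DNA. Many also carry a KRAB domain, which recruits the scaffold protein Trim28 and with it histone methylation and deacetylation, and many of these silence transposable elements. The genes arose by repeated tandem duplication, so that members resemble each other in sequence, and sets differ between species. The name is not a strict class: the Zfp36 proteins have CCCH fingers and bind RNA.

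Each value is the deposited log ratio of the 2 channels of an array, and the same RNA in both implies a ratio of 0 if both dyes read a probe alike. All arrays carried the dyes the same way round. A steady difference between the dyes at a probe therefore cannot be told apart from any other steady departure from 0, and was not tested. The log base and the channel in the numerator are not stated. The values were read as log10, signs are those of the deposited values, and folds hold only under that reading. No signal intensity was at hand, so neither the level of any Zfp gene in A23 cells nor the identity of the cells by marker levels could be checked. No slide or scan date was given, so no batch could be tested. Replicate 2 was the widest array, also over Zfp probes, where the SD within the array was 0.172 against 0.106 to 0.124 on the others.

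Zfp probes leaned a little to negative mean ratios, where other named probes leaned to positive ones. Over 5 arrays 144 of 281 Zfp probes (51.2%) had a negative mean, 129 (45.9%) a positive one and 8 a mean of exactly 0. Of the other 17505 named probes, 46.2% were negative and 52.0% positive. The median of the mean ratios was -0.00324 for Zfp probes and 0.00299 for the others, both far smaller than the median SD of a single probe. The lean was seen on each array once exact zeros were set aside. Among nonzero ratios the negative share of Zfp probes was 54.98%, 53.5%, 57.3%, 56.4% and 55.5% on replicates 1 to 5, and that of other named probes was 50.04%, 46.9%, 49.6%, 51.5% and 49.5%. The gap was 6.01 percentage points on average (SD 1.15, n = 5 arrays), and no array closed it. No test was made of this difference or of the others below that set Zfp probes against other probes, since probes are not replicates. Without replicate 2 the negative shares of the mean ratios came closer, at 48.8% against 47.4%, and without replicate 3 they were 49.5% against 46.6%. Counted by genes, 132 of 264 Zfp genes (50%) had a negative mean and 126 a positive one, against 46.1% negative among other named genes. By the sign of the median over arrays the negative shares of probes were 45.6% and 42.7%.

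The lean was most marked in a narrow range of ratios, which was picked after the values were seen and is given with no test. In the interval from -0.06 to -0.04 lay 44 Zfp probes, 15.7% of the members, against 6.71% of the other named probes. The next interval towards 0, from -0.04 to -0.02, held 9.96% of Zfp probes and 11.3% of the others. The interval from -0.08 to -0.06 held 4.98% and 4.24%. The mirror interval from 0.04 to 0.06 held 18 Zfp probes (6.41%) and 8.61% of the others. Far from 0 the balance was the other way round: 37 Zfp probes (13.2%) had a mean above 0.1 and 9 (3.203%) a mean below -0.1. Over all probes of the arrays those shares were 9.86% and 7.53%. Of the 37 Zfp probes above 0.1, 12 had no exact 0 on any array, and among probes with no exact 0 the share above 0.1 was 6.15% for Zfp and 6.66% for other named probes. Above 0.3 stood 1 Zfp probe (0.441% of all probes did) and below -0.3 none (0.518% of all probes did). It was Zfp775, listed at 0 on replicates 1 and 3 and at 1.19, 0.652 and 0.278 on replicates 2, 4 and 5. Leaving out replicate 1 raised the count below -0.1 to 15 probes.

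A set of Zfp probes had small negative ratios that were nearly the same on every array. Each probe's mean was tested against 0 in limma with Benjamini-Hochberg adjustment over all 20868 probes. At an adjusted p of 0.05, 23 of 281 Zfp probes (8.19%) passed, 22 negative (7.83%) and 1 positive (0.356%). Over all probes 3.42% passed, 2% with a negative and 1.41% with a positive ratio. At an unadjusted p of 0.05 the Zfp share was 29.9%, near the 27.3% over all probes. With probes of a gene averaged first, 13 of 264 Zfp genes (4.92%) passed, against 2.45% of all genes. The gene share was below that of other named genes with exact zeros as missing (2.12% against 2.60%) and in robust regression (18.6% against 19.8%).

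The call of each single probe rested on having 5 arrays. With replicate 1, 2, 3, 4 or 5 left out, 0 Zfp probes passed in limma, while 24, 4, 5, 8 or 63 of all probes did. All 23 kept their sign and an unadjusted p under 0.05 each time, and 62 to 79 Zfp probes had such a p. Other fits on 5 arrays called between 5 (1.78%, against 1.15% of other named probes) and 56 Zfp probes. Of the 23, 7 were still called with exact zeros treated as missing, when 2.81% of Zfp and 2.96% of other named probes passed, and all 23 in robust regression, when 19.9% and 19.6% passed. For negative calls alone the shares in those fits were 2.41% of Zfp (6 of 249) against 1.81% of other named probes, and 16.7% (47 of 281) against 9.84%. The first of these gaps rests on few probes. With an array left out the negative calls were 0 for Zfp and 0.0229% to 0.268% of other named probes.

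Among the 22 negative probes, 21 had means between -0.088 and -0.0443, which is 1.22-fold to 1.11-fold if log10. Their between-array SDs were 0.00553 to 0.0233, with a median of 0.00948. The 327 called negative probes with other names were larger and more variable, with a median mean of -0.132 and a median SD of 0.0372. Over the 21 probes the median ratio was -0.0605, -0.059, -0.0555, -0.0502 and -0.057 on replicates 1 to 5, and no single value was above -0.0286. A probe with a mean this near 0 is called only if its values lie close together. The small SDs and the shared sign of these probes, here and below, therefore follow from the call and are descriptions.

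Zfp932, a mouse KRAB repressor of endogenous retroviruses, gave -0.0605, -0.0573, -0.0551, -0.0424 and -0.057 on replicates 1 to 5, with a mean of -0.0545 ± 0.00704 (SD, n = 5; limma adjusted p = 0.0376). Zfp930 gave -0.0573, -0.0618, -0.0564, -0.0462 and -0.0602, a mean of -0.0564 ± 0.00609 (limma adjusted p = 0.0357). Both genes were nearest to 0 on replicate 4.
Zfp934 gave -0.0597, -0.0643, -0.056, -0.0398 and -0.0491 (mean -0.0538 ± 0.00957), again nearest to 0 on replicate 4. Zfp935 gave -0.0493, -0.0552, -0.0619, -0.0502 and -0.0286 (mean -0.049 ± 0.0125), nearest to 0 on replicate 5. All values of these probes were on the negative side.

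The low-numbered genes Zfp51, Zfp52, Zfp53, Zfp54 and Zfp58 were also called, each negative on each array. Zfp51 gave -0.0475, -0.0486, -0.0402, -0.0336 and -0.0609 (mean -0.0462 ± 0.0102, SD, n = 5). Zfp52 gave -0.0484, -0.0475, -0.0506, -0.031 and -0.0441 (mean -0.0443 ± 0.00778), the smallest mean in size of the called probes. Zfp53 had the widest range of the 5, from -0.0759 on replicate 1 to -0.0347 on replicate 5 (mean -0.0551 ± 0.0156). Zfp54 gave -0.0571 ± 0.0078 and Zfp58 -0.0509 ± 0.00846, with limma adjusted p-values of 0.0363 and 0.0445.

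The lowest adjusted p of the negative probes belonged to Zfp248 (feature 9005), at -0.0766, -0.0722, -0.0555, -0.0713 and -0.071 (mean -0.0693 ± 0.00804; limma adjusted p = 0.0281). Zfp119b, at -0.0653 ± 0.00604, and Zfp563, at -0.056 ± 0.00553, were the steadiest of the set. All 3 stayed below -0.049 on each array. Zfp825 stood at -0.0716 ± 0.0109, Zfp72 at -0.0669 ± 0.00948, Zfp82 (feature 5946) at -0.0616 ± 0.00949 and Zfp715 at -0.0531 ± 0.0109. Zfp37 (-0.0564 ± 0.0168), Zfp74 (feature 15170, -0.0477 ± 0.00948) and Zfp820 (-0.0447 ± 0.00775) completed the narrow range with Zfp24 and Zfp950. These 7 genes were likewise negative on each array. Zfp24, which is needed for myelination in mice, had -0.0771, -0.0896, -0.0827, -0.0743 and -0.0306 (feature 8106, mean -0.0709 ± 0.0233). Zfp950 had -0.129 on replicate 5 and between -0.083 and -0.0733 on the others (feature 12343, mean -0.088 ± 0.0232).

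Zfp235 stood apart from the other 21, at -0.197, -0.317, -0.155, -0.281 and -0.185 (mean -0.227 ± 0.0689, 1.69-fold if log10; limma adjusted p = 0.0372). Its values were lowest on replicates 2 and 4, and its highest value lay below every value of the other called probes. Zfp428 was the 1 positive probe called, at 0.106, 0.0837, 0.11, 0.109 and 0.14 (mean 0.11 ± 0.0202, 1.29-fold if log10; limma adjusted p = 0.0236). It had the lowest adjusted p of all Zfp probes, and its values did not overlap those of any called negative probe.

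**Figure D1:**
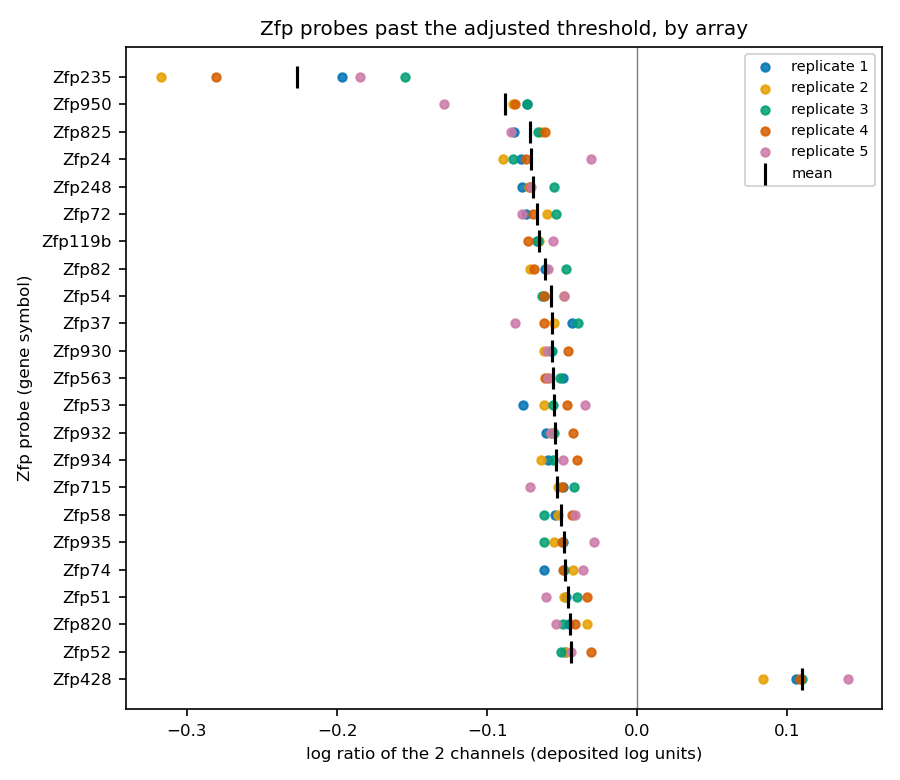
Log ratio (deposited log units) of the 23 Zfp probes past the adjusted threshold, with 1 point per array and the mean as a vertical tick. Most negative probes stack between -0.088 and -0.0443, with Zfp235 further out at -0.227 and Zfp428 alone on the positive side.

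Steady negative ratios reached beyond the called probes. With a limit on the SD of 0.02, chosen after the values were seen and given with no test, 37 Zfp probes of 35 genes (13.2%) were under the limit and negative on each of the 5 arrays, of which 19 were called. Their means ran from -0.0716 to -0.0132 with a median of -0.049. Over all probes 4.37% met this description, and of the other named probes 4.22% did. The positive counterpart held 1 Zfp probe (0.356%), Zfp114 at 0.014 ± 0.0045 (SD, n = 5), against 2.73% of all probes. Whatever array was left out, 38 to 41 Zfp probes (13.5% to 14.6%) were negative on each array used with an SD under that limit. Of other named probes 4.51% to 7.15% were. The positive counterpart held 3 to 6 Zfp probes (1.07% to 2.14%), against 2.97% to 5.82% of other named probes. A single sign is easier to meet on fewer arrays, so these counts do not measure how stable the set is. Without regard to SD, 56 Zfp probes (19.9%) were negative on each array and 18 (6.41%) positive, where the shares over all probes were 13.4% and 13%.

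The between-array SD itself differed little between Zfp and other probes, but it differed by sign. The median SD was 0.0552 over Zfp probes, with quartiles of 0.0233 and 0.112, and 0.0571 over other named probes, with quartiles of 0.0282 and 0.11. Counted by genes the order turned, at 0.057 against 0.0563. Among probes with no exact 0, the median SD was 0.0388 for 195 Zfp probes and 0.046 for 13297 others. In that set the negative Zfp probes had a median SD of 0.0263 and the positive ones of 0.0512, against 0.0443 and 0.0474 for other named probes. In pairs of arrays, Pearson's r across the 281 Zfp probes was 0.039 to 0.320 over 10 pairs, against 0.271 to 0.426 across other named probes. Probes of an array share its labelling and scan, so these r are descriptions.

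**Figure D2:**
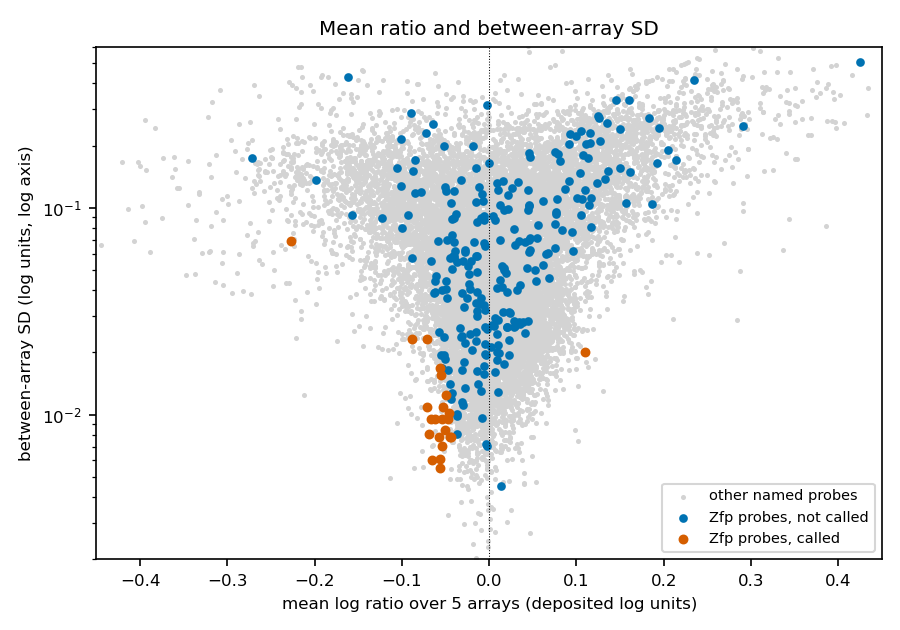
Mean log ratio (deposited log units) against between-array SD (log axis) for Zfp probes, called or not, over other named probes in grey, with probes whose SD is 0 and the far extremes outside the axes. The called negative Zfp probes form a column with SDs mostly near 0.00948 at ratios between -0.088 and -0.0443, and no such column stands on the positive side.

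Of uncalled Zfp probes with 1 sign on 5 arrays, the most negative mean was that of Zfp365, which encodes a binding partner of the neuronal protein DISC1. It was at -0.151, -0.561, -0.306, -0.198 and -0.143 (mean -0.272 ± 0.174; limma adjusted p = 0.0956), with replicate 2 the lowest. A second Zfp24 probe (feature 19254) followed at -0.198 ± 0.137, then Zfp398 at -0.158 ± 0.0926, Zfp790 at -0.123 ± 0.0892, Zfp783 at -0.0997 ± 0.0803 and Zfp449 at -0.0879 ± 0.0571. On the positive side of the uncalled probes Zfp267 led with 0.0808, 0.278, 0.106, 0.15 and 0.315 (mean 0.186 ± 0.105; limma adjusted p = 0.0778), high on replicates 2 and 5. Zfp446 (0.157 ± 0.106), Zfp644 (feature 10551, 0.149 ± 0.157), Zfp11 (0.124 ± 0.132), Zfp212 (0.117 ± 0.0805), Zfp654 (0.117 ± 0.112), Zfp800 (0.106 ± 0.0925) and Zfp286 (0.0873 ± 0.123) were positive on each array and were not called. For Zfp644, Zfp11 and Zfp286 the SD between arrays exceeded the mean.

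Among Zfp probes with no exact 0, the 5 with the largest between-array SD had ratios of both signs. Zfp330, whose human protein is found in the nucleolus, ran from -0.691 on replicate 4 to 0.292 on replicate 5 (SD 0.428). Zfp94 ran from -0.414 to 0.316, Zfp459 from -0.138 to 0.431, Zfp536, a repressor of neuronal differentiation, from -0.394 to 0.242, and Zfp87 from -0.451 to 0.0729. At the other end of these probes Zfp949 stayed between -0.014 and 0.00487 (SD 0.00702). No array was the extreme one for all of these genes.

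Exact zeros were listed more often for Zfp probes. A value of exactly 0 on at least 1 array was held by 86 of 281 Zfp probes (30.6%) and by 24.0% of other named probes. By array the Zfp share was 10.7%, 9.61%, 14.2%, 7.83% and 25.6% on replicates 1 to 5, and the share of the others was 8.80%, 7.67%, 11.5%, 5.89% and 19.4%. The Zfp share was the higher one on every array, by 1.87 to 6.21 percentage points, and replicate 5 had the most zeros in both sets. Without replicate 5 the shares with any 0 were 19.6% and 16.2%. The largest number of these Zfp probes, 40, was at 0 on 1 array, and 14, 13 and 11 were at 0 on 2, 3 and 4 arrays. On all 5 arrays 8 Zfp probes (2.85%) were listed at 0, against 1.78% of the others. They belong to Zfp28, Zfp84, Zfp109, Zfp277, Zfp647, Zfp781, Zfp944 and Zfp947. For Zfp28 and Zfp84 another probe gave values, at -0.0523 ± 0.0195 and -0.0856 ± 0.118 (SD, n = 5).

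**Figure D3:**
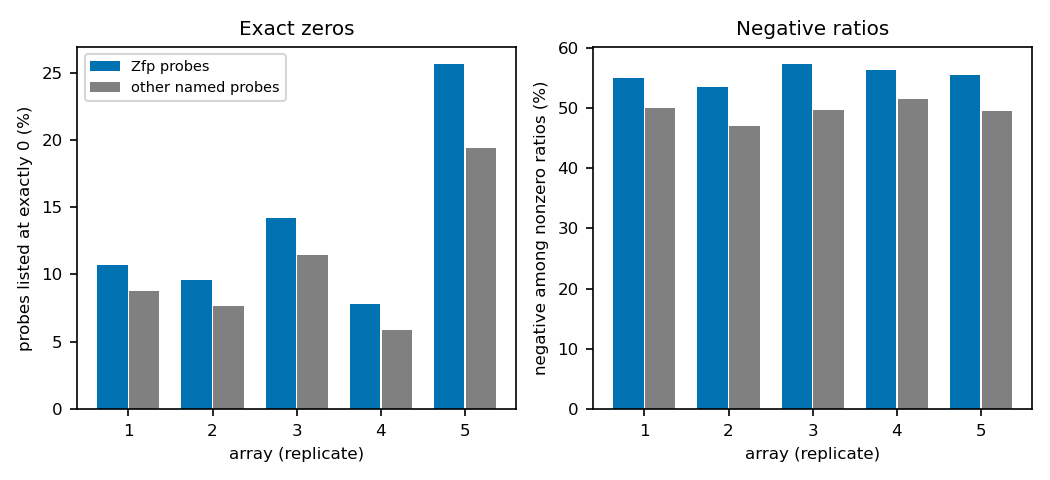
Share of probes listed at exactly 0 (left, %) and share of negative among nonzero ratios (right, %) on each of 5 arrays, for Zfp and other named probes. Both shares are higher for Zfp probes on each array, and exact zeros reach 25.6% of Zfp probes on replicate 5.

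For 14 Zfp genes there was more than 1 probe, and in 7 of them (50%) the probes differed in the sign of the mean, against 47.1% of such genes with other names. No gene had more than 1 called probe. Zfp248 had 0.0787 ± 0.182 (SD, n = 5) on its other probe, which was at 0 on 3 arrays, Zfp950 had 0.1 ± 0.112 and Zfp82 had 0.00901 ± 0.0246, none of them negative as the called probe was. The other probes of Zfp24 and Zfp74 were negative, at -0.198 ± 0.137 and -0.0325 ± 0.136. Zfp935 was the pair in closest accord, at -0.049 ± 0.0125 and -0.0446 ± 0.0141, although only the first was called. The 3 probes of Zfp729a were at -0.0572 ± 0.0252, -0.0469 ± 0.0165 and -0.0311 ± 0.0116, negative on each array and not called. The 3 probes of Zfp318 spread from -0.0621 to 0.0326. Zfp644 had the widest span of these genes, at 0.149 ± 0.157 (feature 10551) and -0.0429 ± 0.0888 (feature 20904).

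Zfp genes with well-studied roles were described by lists of a few probes each, for which the shares over all probes were 3.42% called and 27.3% at an unadjusted p under 0.05. Of 7 KRAB repressors with a known target, 3 had a named probe, and 1 passed, the negative Zfp932. Zfp819, which acts on endogenous retroviruses in mice, had 0.0297 ± 0.0662 (SD, n = 5), and Zfp445, which guards imprinted methylation, had 0.00951 ± 0.122, with ratios of both signs in either case. The sign of the Zfp445 mean turned when arrays were scaled (-0.00606) or quantile normalized (-0.00964).

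Among Zfp genes that act on RNA or ribosomes, 8 of 9 had a probe and 0 passed in limma, 3 being negative and 5 positive, with 2 at an unadjusted p under 0.05. Zfp622, a factor of large ribosomal subunit maturation, had 0.459, 0.61, 0.268, 0.115 and an exact 0 (mean 0.29 ± 0.248; limma adjusted p = 0.15). Zfp106, an RNA-binding protein, was negative on each array at -0.0281 ± 0.0134. Zfp36, which marks messages with AU-rich elements for decay, had 0.0243 ± 0.0312, and its relatives Zfp36l2 and Zfp36l1 had 0.0759 ± 0.0833 and 0.00652 ± 0.0162. Zfp326, whose human counterpart links splicing to transcription, had 0.0161 ± 0.0315. For these last 4 genes the ratio was negative on at least 1 array.

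Of 14 genes of stem cells and development, 11 had a probe and 0 passed in limma, with 3 negative and 8 positive means and 1 unadjusted p under 0.05. That one was Zfp322a, a factor of embryonic stem cells, at 0.0313, 0.0307, 0.138, 0.165 and 0.117 (mean 0.0964 ± 0.062). Zfp281, a regulator of pluripotent cells, was negative on each array at -0.0276 ± 0.0223. Zfp503, known from the developing striatum, had 0.0358 ± 0.0423, and Zfp423, a factor of fat cell commitment, had 0.0167 ± 0.0175. Zfp521, which acts in blood and neural progenitors, had 0.736 on replicate 1 and between -0.11 and 0.12 on the others.

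Of 5 genes of signalling and protein modification, 4 had a probe and 0 passed in limma, with 3 unadjusted p-values under 0.05. Zfp110 and Zfp369 encode related interactors of the neurotrophin receptor p75. Zfp110 was at 0.0614 ± 0.0532 with an exact 0 on replicate 5, and Zfp369 was at -0.054 ± 0.0402, negative on each array. Zfp451, a SUMO ligase, had 0.0756 ± 0.0638 and an exact 0 on replicate 5. The ubiquitin ligase gene Zfp91 was at 0 on replicates 3 and 5 and at 0.359 on replicate 1.

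Genes of like families, and the partners of KRAB proteins, were set beside them. Probes of Zscan and Zkscan genes, many of whose proteins pair C2H2 fingers with a SCAN domain, were negative in 12 of 16 cases (median -0.0438), and 7 were negative on each array. In limma 0 of the 16 passed, with 7 unadjusted p-values under 0.05 (43.8%), against 3.42% and 27.3% over all probes. Their median SD was 0.0533, against 0.0552 over all Zfp probes, and 1 probe was both under an SD of 0.02 and negative on each array. Zbtb genes, taken by symbol and most of which join fingers to a BTB domain, had 15 negative and 20 positive probes (median 0.0068). Of these 2 were called (5.71%), both positive. Zbtb8os, at -0.0512, was counted by its symbol alone. Klf and Sp genes, with fingers that bind GC-rich DNA, had 8 negative and 18 positive probes (median 0.0255), with 1 called (3.85%), positive. The KRAB corepressor list had 34 probes of 32 genes, of which 10 were negative and 23 positive (median 0.0266), and 5 passed (14.7%, against 3.42% of all probes). Hdac2, a histone deacetylase, gave -0.097 ± 0.012 (SD, n = 5; limma adjusted p = 0.0191) and Cbx3 (feature 15476), a heterochromatin protein, -0.0835 ± 0.0149. The other Cbx3 probe (feature 16209) had -0.00793 ± 0.0326, with ratios of both signs, and was not called. The chromatin remodeller gene Chd3 passed with opposite signs on its 2 probes, at -0.131 ± 0.0422 and 0.0572 ± 0.016. The fifth call was Gatad2a, at 0.0951 ± 0.0314. Trim28, the scaffold that KRAB domains bind, named here for its role, was at 0.000818 ± 0.05. No test was made of these families against each other.

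**Figure D4:**
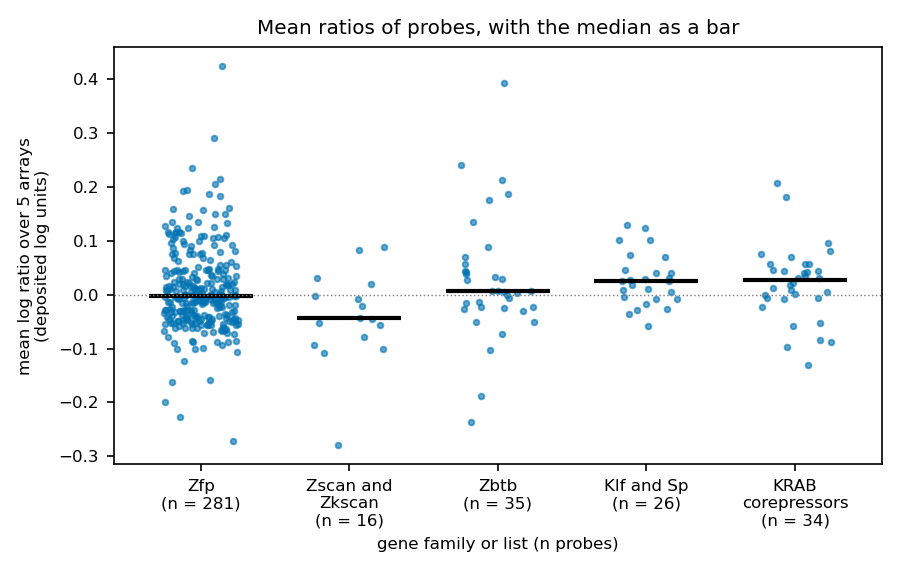
Mean log ratio over 5 arrays (deposited log units) of each probe of the Zfp genes, of like zinc finger families and of the KRAB corepressors, with the median as a bar. The medians are -0.00324 for Zfp, -0.0438 for Zscan and Zkscan, 0.0068 for Zbtb, 0.0255 for Klf and Sp and 0.0266 for corepressors.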

How the data were processed

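RNA of A23 was measured against itself on 5 arrays with 2 channels. The authors deposited 1 log ratio per probe and array, read here as log10 (a factor of 3.32 to log2). Per the labels' protocols total RNA was directly labelled; no source used here gives the image quantification or normalization. Columns of samples outside the series numbered 0.

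An intercept-only model was fitted to the log2 ratios of all 20868 probes with lmFit and eBayes (limma 3.58.1, R 4.3.3) and adjusted by Benjamini-Hochberg at 0.05. Printed means and SDs are over n = 5 arrays, on the deposited scale. Tested on simulated data with the real SDs on 20868 probes, the fit recovered 33 of 67 probes shifted 1.5-fold, 47 of 67 shifted 2-fold and 60 of 66 shifted 4-fold, with 6 false calls.

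The members and lists were chosen with earlier results of these data known. Genes named were called probes, the 10 largest of each sign with 1 sign on all arrays, the 5 largest and 5 smallest SDs among probes with no exact 0, probes at 0 on all 5 arrays and up to 5 members per list (3 corepressors). Gatad2a, Trim28, Zfp775, Zfp36l1 and genes with several probes were added after their values were seen. A planned count of fingers per protein was not made, as no protein table was used here. Depth is not defined for arrays; their number limits the precision. The alternatives were median centring, scaling, quantile normalization, exact zeros as missing, probes with no exact 0, robust and weighted fits and leaving out each array.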

Additional observations from a re-analysis of the deposited data

Results flagged for a closer look

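In 7 of 69 sets of 5 array values, 1 array lay far from the other 4 by Dixon's criterion. Chance meets it in about 1 of 20 sets of unselected normal values. Most of these sets were probes named for their values, some with exact zeros, so 7 of 69 cannot be set against that rate. Zfp950 (feature 12343) had -0.129 on replicate 5 against -0.083 to -0.0733 elsewhere. Zfp24 (feature 8106) had -0.0306 on replicate 5 against -0.0896 to -0.0743. Zfp248 (feature 9005) had -0.0555 on replicate 3 against -0.0766 to -0.071. Zfp286 had 0.306 on replicate 5 against 0.0131 to 0.0612. Zfp91 had 0.359 on replicate 1 against -0.0677 to 0, and Zfp521 had 0.736 on replicate 1 against -0.11 to 0.12. The SD over all Zfp probes within an array was 0.172 on replicate 2 against 0.106 to 0.124. The cause of these values was not tested.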

How the results depend on the processing

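No paired analysis was possible because all arrays form 1 group. Of 281 Zfp probes, 23 were called (22 negative, 1 positive), 8.19% against 3.37% of other named probes. The number was 12 (11 negative) after quantile normalization, 4.27% against 2.50%. It was 7 (6 negative) with exact zeros as missing, 2.81% against 2.96%. In robust regression it was 56 (47 negative, 9 positive), 19.9% against 19.6%. With array weights it was 35 (34 negative), 12.5% against 7.57%, and with a robust prior 5 (4 negative), 1.78% against 1.15%. With any array left out it was 0 for either sign. Among probes with no exact 0 it was 23, with 2 positive, 11.8% against 8.39%. Called Zfp genes numbered 13, and 0 with any array left out. They numbered 5 with zeros as missing (2.12%, against 2.60% of other named genes) and 22 without probes that have a 0 (11.8% against 8.33%). In robust regression they numbered 49 (18.6% against 19.8%), with array weights 27 (10.2% against 7.17%) and with a robust prior 3 (1.14% against 1.03%). Among probes with no exact 0 the negative share was 59.0% (48.0% for other named probes), the median ratio -0.0105, the median SD 0.0388, and the counts above 0.1 and 0.3 were 12 and 0. By the sign of the median over arrays the negative share was 45.6% (42.7% for the others). With zeros as missing 3 Zfp probes lay above 0.3. With 1 array left out, the negative share was 48.8% to 53.4%, the median ratio -0.00405 to 0, the median SD 0.0446 to 0.055, the share with an exact 0 19.6% to 30.6%, the count above 0.1 was 29 to 37, below -0.1 6 to 15, above 0.3 0 to 2 and below -0.3 0 to 1. The settings chosen after seeing the data gave 15 steady negative probes at an SD limit of 0.01 and 38 to 41 with 1 array left out, and for steady positive probes 2 after quantile normalization, 6 at a limit of 0.03 and 3 to 6 with 1 array left out. Means not called changed sign for Zfp445 (-0.00606 scaled, -0.00964 quantile normalized, -0.00449 in robust regression, -0.0223 with array weights) and Zfp91 (-0.00634 in robust regression). With 1 array left out they ranged over both signs for Zfp445 (-0.0377 to 0.0462), Zfp91 (-0.0308 to 0.0758), Zfp94 (-0.0819 to 0.101) and Zfp536 (-0.142 to 0.0174). Of the single-probe comparisons under alternatives, 614 kept sign and side of the threshold, 186 lost a call, 4 gained one and 10 changed sign. The cause was not tested. Signal over background is unknown here.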
